A study of Mus musculus with 1505 samples.

Results

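The genes of 7 EF-hand calcium-binding proteins, of 42381 genes listed for single neurons of the mouse primary motor cortex, are described by their exonic read counts: *Pvalb*, *Calb1*, *Calb2*, *Necab1*, *Necab2*, *Necab3* and *Ncald*. They were listed by name, with earlier results of these data known, and all 7 were found in the tables. The study patched single neurons in acute slices of adult mice of both sexes, recorded them, filled them for morphology and sequenced the RNA drawn into the pipette (Patch-seq). The mice were wild-type C57Bl/6 animals or crosses of the Ai9 reporter with Viaat-Cre, Sst-Cre, Vip-Cre, Pvalb-Cre, Npy-Cre, Vipr2-Cre, Slc17a8-Cre, Slc17a8-iCre or Gnb4-Cre, in which Cre follows the named gene, so that a red cell in a Pvalb-Cre slice was itself chosen by *Pvalb* activity. The labels do not give the line, animal or age of a cell. The main set, recorded at room temperature on 239 days, holds 1228 cells with a transcriptomic type (t-type) and 92 without. A second set holds 185 cells recorded at physiological temperature on 8 days, in layer 5 of Sst-Cre/Ai9 and Pvalb-Cre/Ai9 slices and with kynurenic acid and picrotoxin in the bath.

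The EF-hand is a helix-loop-helix fold whose loop of 12 residues holds a calcium ion with oxygen atoms of its side chains. Parvalbumin (*Pvalb*), calbindin (*Calb1*) and calretinin (*Calb2*) are soluble calcium buffers that shape how quickly a calcium transient rises and decays, and they have long served as immunohistochemical markers of classes of cortical interneurons. The NECAB proteins (*Necab1*, *Necab2*, *Necab3*) pair an EF-hand region with a monooxygenase-like domain, and neurocalcin delta (*Ncald*) is a myristoylated neuronal calcium sensor that moves to membranes when it binds calcium.

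The loops that make these genes one group are shown, 1 or 2 for a gene, because the calcium site is what these otherwise unlike proteins share. The calcium-binding loop pattern, searched in the coding sequence of 1 transcript a gene (GENCODE M21 annotation, GRCm38), was found in 2 stretches of *Pvalb*, 4 of *Calb1*, 5 of *Calb2*, 1 of *Necab1*, 2 of *Necab2*, 1 of *Necab3* and 3 of *Ncald*. Each line gives 36 coding bases, 5′ to 3′ on the gene's strand, and the capitals mark codons 1, 3, 5 and 12 of the loop, which supply side chains to the calcium site.
Pvalb, loop 1: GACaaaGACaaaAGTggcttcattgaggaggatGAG
Calb1, loop 1: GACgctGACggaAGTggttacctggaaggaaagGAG
Calb2, loop 1: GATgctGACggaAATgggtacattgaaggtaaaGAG
Calb1, loop 2: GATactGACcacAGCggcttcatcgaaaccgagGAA
Calb2, loop 3: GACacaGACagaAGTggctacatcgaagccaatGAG
Necab1, loop 1: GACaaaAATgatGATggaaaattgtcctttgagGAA
Necab2, loop 1: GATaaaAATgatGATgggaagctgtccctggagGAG
Necab3, loop 1: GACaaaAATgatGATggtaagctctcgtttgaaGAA
Ncald, loop 1: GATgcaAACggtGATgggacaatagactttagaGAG
The NECAB loops are much alike: *Necab1* and *Necab2* share 29 of 36 bases, *Necab1* and *Necab3* 30, and *Necab2* and *Necab3* 28. The first loops of *Calb1* and *Calb2* share 29, while those of *Pvalb* and *Ncald* share 15.

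In the same annotation *Pvalb* lies on the reverse strand of chromosome 15 at chr15:78191114-78206400, and its loop 1 falls within 1 coding exon at chr15:78202526-78202561. *Ncald* lies on the same chromosome and strand, far from *Pvalb*, at chr15:37366175-37792570. *Calb1* is at chr4:15881264-15908064 on the forward strand and *Necab1* close by at chr4:14952245-15149794 on the reverse strand. *Calb2* is at chr8:110137502-110168210 on the reverse strand, *Necab2* at chr8:119446719-119472640 on the forward strand and *Necab3* at chr2:154544399-154558890 on the reverse strand. The loop shown for each NECAB gene is coded by 2 exons. Exons of *Necab1*, *Necab3* and *Ncald* overlap those of Gm11837, of 1700003F12Rik, and of Gm28221 and Gm49397 over 7.83%, 2.79% and 7.38% of their exonic bases, and since the library did not mark strand, reads there cannot be assigned to 1 gene.

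Cells held from 5 to 18172944 exonic reads, and typed cells from 2588 upward. The families, named by the study from each cell's RNA, hold 286 Pvalb, 272 Sst, 152 Vip, 92 Lamp5 and 13 Sncg cells among inhibitory neurons, and 253 IT (intratelencephalic), 48 ET (extratelencephalic, called PT in the t-type names), 83 CT (corticothalamic), 24 L6b and 5 NP (near-projecting) cells among excitatory neurons. A level is the sum of a gene's exonic reads over a group of cells relative to all exonic reads of the group, as counts-per-million (CPM), with an exact 95% Poisson interval that covers counting error only, since several reads can be copies of 1 amplified cDNA. As no label ties cells to animals, each group is 1 sample and no test was made: the spread given is that over cells. The t-types were assigned from the same RNA, so a high level of *Pvalb* in the Pvalb family is in part what named it. Summed levels of the GABAergic markers were 2200 to 6802 CPM in the inhibitory and 0.550 to 30.8 CPM in the excitatory families, and those of the glutamatergic markers 5.47 to 15.7 and 451 to 1149 CPM. Reads of microglial markers, at 280 to 964 CPM in sum, and of oligodendrocyte markers, at 229 to 1982 CPM, were found in all 10 families, those of astrocytes at 0.220 to 202 CPM, and those of endothelial and mural cells at 1.998 to 8.72 CPM. Their part in the levels below was not tested.

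*Pvalb* was the gene most tied to 1 family. It stood at 372.5 CPM (interval 371 to 374) in the Pvalb family, where 272 of 286 cells held at least 1 read and the cells ran from 0 through a median of 175 to 2697 CPM. The next family, Sst, had 16.6 CPM, with a read in 65 of 272 cells and a median of 0. The interquartile ranges of the cells of these families did not overlap, which was the case for only 2 of the 63 pairs of neighbours in the orders of the 7 genes, the other being NP over Sncg for *Ncald*. Below Sst, *Pvalb* reached 5.68 CPM in Vip, 4.67 in both L6b and IT, 2.76 in Lamp5, 1.43 in both ET and CT, 1.16 in Sncg and no read among 9096866 in NP, which allows up to 0.330 CPM by a floor of 3 reads. Leaving out the cell with the most reads took IT to 2.003, L6b to 2.31, Lamp5 to 1.62 and Sncg to 0.336 CPM, so the order of these families turns on single cells.

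*Calb1* and *Calb2* each led in another inhibitory family. *Calb1* was highest in Sst at 882 CPM (interval 879 to 885), with a read in 183 of 272 cells, a median of 206 and a highest cell of 6477 CPM. These cells were spread over the whole scale: 89 held no read and 58 reached 1000 CPM or more. *Calb1* followed at 240 CPM in the 13 Sncg cells (121 without the top cell), 163 in IT, where 144 of 253 cells had a read, and 59.6 in Pvalb, where 89 of 286 did. CT, Lamp5, ET, Vip and L6b had 19.8, 17.7, 9.68, 4.81 and 2.34 CPM (6.09, 10.95, 5.53, 3.72 and 0.231 without the top cell), and NP had no read.
*Calb2* was highest in Vip at 191 CPM (interval 189 to 193), where fewer than all cells carried it: 71 of 152 held a read, the median was 0 and the highest cell had 2992 CPM. Sst followed at 28.997 CPM in 54 of 272 cells, and every other family lay at or below 2.03 CPM, a value that in L6b came from 1 cell. In the earlier recording years alone the order of Vip and Sst was reversed, with 16.9 CPM in 6 Vip cells, of which 1 held reads, and 56.3 CPM in 111 Sst cells.

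**Figure D1:**
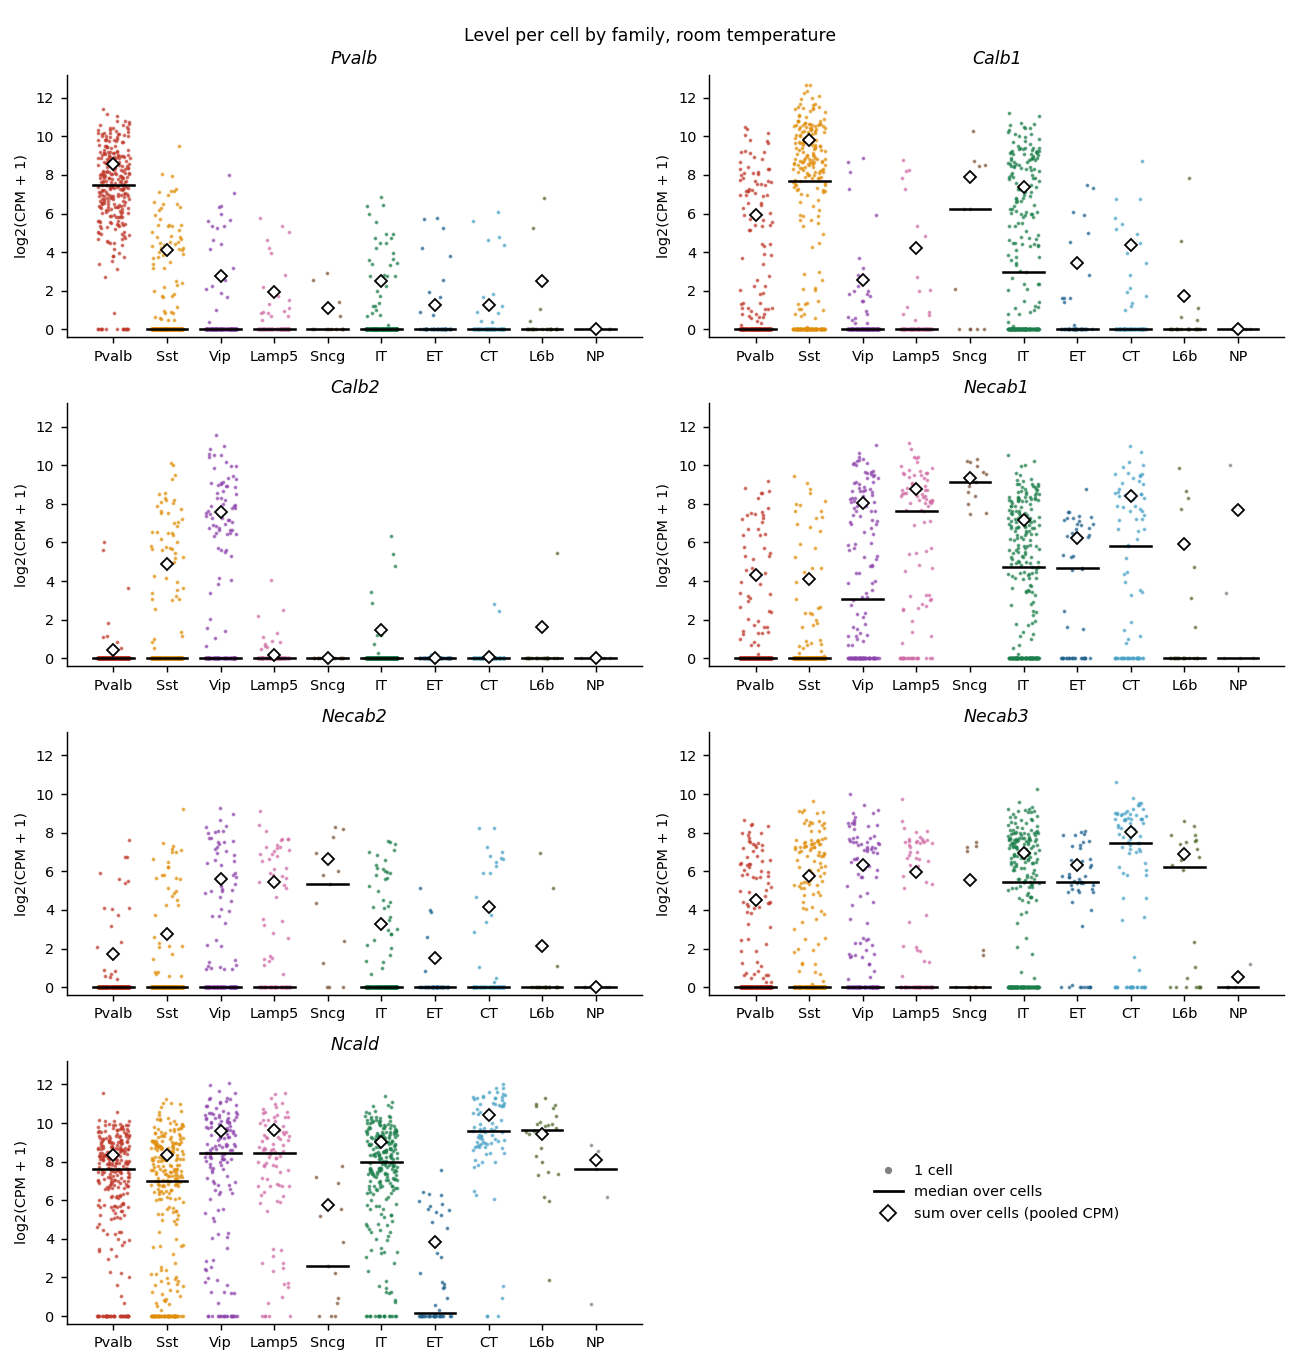
Level of each of the 7 genes in every typed room-temperature cell as log2(CPM + 1), with 1 panel a gene and 1 column a family, where each point is a cell, the bar the median over cells and the diamond the pooled CPM. *Pvalb* fills the Pvalb column, with 272 of 286 cells above 0, while *Calb1* in Sst and *Calb2* in Vip run from many cells at 0 to cells at 2992 CPM or more.

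The NECAB genes had other families at the top of their orders. *Necab1* was found in all 13 Sncg cells, from 174 through 566 to 1263 CPM, with a pooled level of 641 CPM (interval 630 to 652). It then stood at 439 CPM in Lamp5 (71 of 92 cells), 342 in CT, 259 in Vip, 145 in IT and 74.01 in ET (40.7 without the top cell), against 18.6 CPM in Pvalb and 15.9 CPM in Sst. The 202 CPM of NP were 1.91 CPM without 1 of its 5 cells, and the 59.8 CPM of L6b were 37.99. *Necab2* had the lowest level of the NECAB genes in every family but Sncg, where *Necab3* was lower. Its levels were 97.6 CPM in Sncg (75.5 without the top cell), 46.7 in Vip, 42.4 in Lamp5, 16.5 in CT and 8.54 in IT. Sst, L6b, Pvalb and ET had 5.73, 3.43, 2.23 and 1.89 CPM (L6b 1.46 and ET 0.909 without the top cell). *Necab3* instead led in the excitatory families CT, IT and L6b: CT had 262 CPM (interval 259 to 265) with a read in 61 of 83 cells, IT 123 and L6b 117, ahead of Vip at 80.5 and ET at 80.02. Lamp5, Sst and Sncg had 62.6, 52.7 and 46.7 CPM (Sncg 30.96 without the top cell) and Pvalb 22.2 CPM. The excitatory NP had the least, 0.440 CPM from 1 of 5 cells.

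*Ncald* was the gene most widely present. CT had 1377 CPM (interval 1371 to 1383), with reads in 80 of 83 cells and a median of 772, followed by Lamp5 at 796, Vip at 759, L6b at 700, where all 24 cells held a read, and IT at 516. Sst and Pvalb lay side by side at 329 and 327 CPM. ET, the layer 5 neurons with subcortical axons, had the lowest level with 13.4 CPM, a read in 24 of 48 cells, a median of 0.128 and a highest cell of 190 CPM. Sncg had 53.8 CPM (28.7 without the top cell), and its interquartile range overlapped that of ET.

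To compare levels between genes they were divided by exonic length. Per kilobase, *Pvalb* in the Pvalb family came first at 358 CPM per kb, ahead of *Calb1* in Sst at 182, *Ncald* in CT at 160, *Necab1* in Sncg at 122, *Calb2* in Vip at 110, *Necab3* in CT at 103 and *Necab2* in Sncg at 46.5 CPM per kb.

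Between inhibitory and excitatory cells as a whole, the 3 buffers and *Necab3* differed by more than 2-fold. On the log2(CPM + 1) scale, *Pvalb* was higher in inhibitory cells by 5.04 (144 against 3.43 CPM), *Calb2* by 4.27 (39.8 against 1.11 CPM) and *Calb1* by 1.76 (335 against 98.4 CPM). *Necab3* was lower in inhibitory cells, at 46.7 against 141 CPM, a log2 difference of -1.57. *Necab2* (0.87), *Ncald* (-0.44) and *Necab1* (-0.57) differed by less than 2-fold. Of 11261 genes with 10 CPM or more on the higher side, 7.34% were past 2-fold higher in inhibitory cells and 9.04% lower, against 3 and 1 of these 7 genes. The excess of *Calb1* was 0.89 when each cell had the same weight and 0.87 after all cells were thinned to 200000 reads, both short of 2-fold, *Necab1* was past it in the earlier recording years (-1.23), while *Necab2* passed 2-fold after thinning (1.05) and with median-of-ratios scaling (1.02). That scaling moved the median gene by 0.17, and the split of all genes past 2-fold from 826 higher and 1018 lower (44.8% higher) to 1117 and 796 (58.4% higher). The cells also differ in date: ET, with 43 of 48 cells, was recorded mostly in the earlier years, and Vip (146 of 152), Lamp5 (84 of 92), CT (82 of 83), L6b (23 of 24) and NP (all 5) in the last calendar year of recording. These are the earlier and the later period in what follows.

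**Figure D2:**
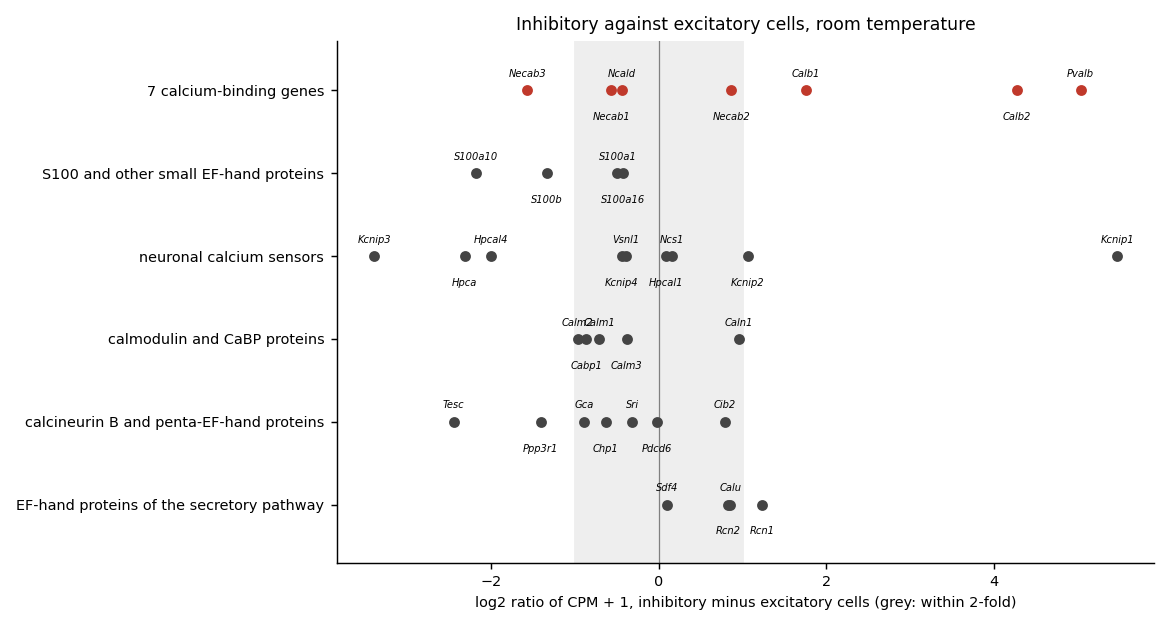
Difference of each gene between inhibitory and excitatory room-temperature cells, as log2(CPM + 1), for the 7 genes (top row) and for the other EF-hand genes with 10 CPM or more on the higher side (1 row a list), with each point a gene and grey for within 2-fold. *Pvalb* at 5.04 and *Calb2* at 4.27 lie far to the inhibitory side, as does *Kcnip1* at 5.47, and *Necab3* at -1.57 to the excitatory side.

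Other EF-hand genes were taken from lists of the calcium-binding families, and of 5 lists 4 had a median below 0. Of 12 neuronal calcium sensors 9 had enough reads, of which 2 were past 2-fold higher in inhibitory cells and 3 lower, with a median of -0.39. *Kcnip1*, a subunit of A-type potassium channels, had 258 against 4.82 CPM (5.47), whereas *Kcnip3*, which also goes by the names DREAM and calsenilin, had 16.8 against 186 CPM (-3.40) and *Hpca*, hippocalcin, 89.1 against 448 CPM (-2.32). Of the S100 and other small proteins 4 of 9 were tested, with 0 past 2-fold higher, 2 lower (*S100a10* at -2.18 and *S100b* at -1.34) and a median of -0.92. Calmodulin and the CaBP proteins had none of 5 past 2-fold and a median of -0.71, and calcineurin B with the penta-EF-hand proteins 0 higher and 2 lower of 7 (*Tesc* at -2.45, *Ppp3r1* at -1.41) and a median of -0.63. Of 4 secretory-pathway genes 1 was higher (*Rcn1*, 1.24), with a median of 0.84. The median over all genes tested was 0.06.

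All families but Sncg, L6b and NP were compared with all other typed cells, and the genes past 2-fold overlapped between some of them. Pvalb cells were past 2-fold higher for 1 gene, *Pvalb* itself at 373 against 7.46 CPM (5.46), and lower for 5, all but *Ncald*, where 5.41% and 9.13% of genes were higher and lower. Sst cells were higher for 1 (*Calb1*, 882 against 69.1 CPM, 3.65) and lower for 3 (*Pvalb*, *Necab1*, *Necab2*), beside 3.29% and 7.69% of genes. Vip cells were higher for 3, namely *Calb2* (4.46), *Necab2* (2.13) and *Necab1* (1.13), and lower for *Pvalb* and *Calb1*, beside 5.39% and 9.42%. Lamp5 cells were higher for 2, *Necab1* (2.01) and *Necab2* (1.82), and lower for the 3 buffers *Pvalb*, *Calb1* and *Calb2*, beside 5.79% and 12.4%.
Among excitatory families, IT was higher for 0 and lower for 2 of the genes (*Pvalb* and *Calb2*), beside 7.38% and 7.34% of all genes. ET was higher for 0 and lower for 5 (the 3 buffers, *Necab2* and *Ncald*, the last at 13.4 against 532 CPM), beside 10.8% and 13%. CT was higher for 3 (*Necab1*, *Necab3*, *Ncald*) and lower for the 3 buffers, beside 6.30% and 18.2%. Since a cell's family was itself read from its RNA, these counts describe the families and do not test them. The other typed cells also include the family where a gene peaks, so a family can be lower because of that family alone. Sst cells, next after Pvalb cells for *Pvalb*, were lower for it at 16.6 against 116 CPM.

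Within families the t-types differed again. Of 78 t-types, 53 had 5 or more cells and hold 1165 of the 1228 typed cells. *Ncald* reached 10 CPM in 52 of the 53 t-types, *Necab3* in 47, *Necab1* in 33, *Calb1* in 30, *Necab2* in 22, *Pvalb* in 17 and *Calb2* in 11. *Calb2* did so in none of the 14 excitatory t-types and in 11 of 39 inhibitory ones. Many of these levels lean on 1 cell: of the 212 levels of 10 CPM or more, 93 were lower by more than 1.5 times without the cell that held the most reads, and such a level is given below with its value without that cell.

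**Figure D3:**
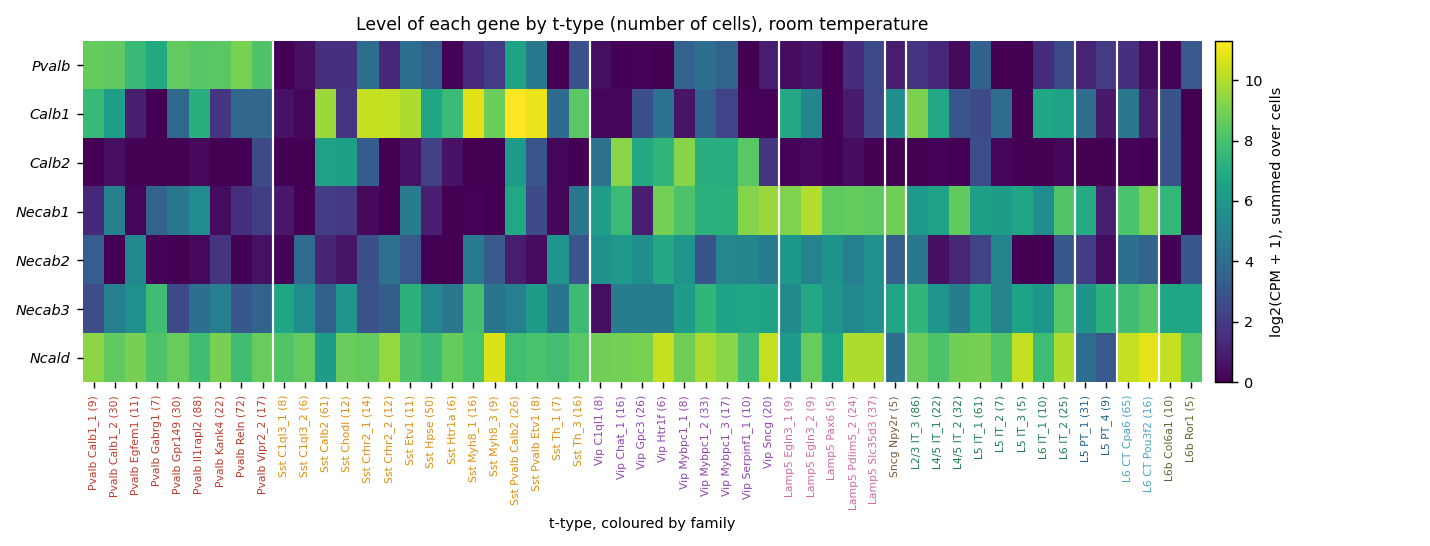
Pooled level of the 7 genes (rows) in the 53 room-temperature t-types of 5 or more cells (columns, grouped by family), as colour on a scale of log2(CPM + 1). The *Pvalb* row is high over the Pvalb t-types, from 115 to 513 CPM, the *Calb1* row is bright in part of the Sst t-types and in L2/3 IT_3, and the *Ncald* row is dim in L5 PT_1, L5 PT_4 and Sncg Npy2r.

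In the Pvalb family, *Pvalb* itself was found in every t-type. All 9 t-types had more than 100 CPM, from 513 CPM in Pvalb Reln, where all 72 cells held a read (20.03 to 2697 CPM, median 242), to 203 CPM in Pvalb Egfem1 and 115 CPM in Pvalb Gabrg1. Without the top cell the last of these had 68.3 CPM and Pvalb Egfem1 30.2 CPM, so the level of Pvalb Egfem1 leaned on 1 cell. Of its 11 cells 5 held no read. *Calb1* divided the same family: Pvalb Calb1_1 had 199 CPM with reads in 4 of 9 cells, Pvalb Il1rapl2 had 140 CPM in 42 of 88, Pvalb Calb1_2 had 76.6 CPM in 10 of 30 (40.5 CPM without the top cell), and Pvalb Gabrg1 had no read. *Necab3* ran from 226 CPM in Pvalb Gabrg1 (6 of 7 cells) to 4.67 CPM in Pvalb Gpr149. *Necab2*, otherwise almost absent from the family, was at 37.6 CPM in 7 of 11 Pvalb Egfem1 cells.
Past 8-fold between the highest and the lowest t-type were 4 of the 6 genes that reached 10 CPM in the family (*Calb1*, *Necab1*, *Necab2*, *Necab3*), beside 46.9% of all genes. *Pvalb* spanned 4.42-fold and *Ncald* 2.85-fold, on the scale of CPM + 1. Without the top cell of each t-type *Pvalb* spanned 14.8-fold, which makes 5 of the 6 genes past 8-fold, and *Ncald* 2.57-fold.

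In the Sst family, *Calb1* had the widest range of any of the genes. All 26 Sst Pvalb Calb2 cells held it, from 226 through 1491 to 6477 CPM, with 2523 CPM pooled, and so did all 8 Sst Pvalb Etv1 cells at 1978 CPM (983 without the top cell). Sst Myh8_1 had 1759 CPM (1169), Sst Crhr2_1 1249 (827), Sst Crhr2_2 1242 (722), Sst Etv1 969 and Sst Calb2 786 CPM, the last with reads in 50 of 61 cells. At the other end Sst Hpse had 101 CPM in 19 of 50 cells, Sst Th_1 13.4 (2.53), Sst Chodl 2.30, and Sst C1ql3_1 and Sst C1ql3_2 0.445 and 0.145 CPM. The order of the upper t-types differed between the recording periods: in the earlier Sst Myh8_1, Sst Pvalb Calb2, Sst Crhr2_1 and Sst Calb2 had 2749, 1934, 704 and 691 CPM of *Calb1*, and in the later 1230, 2819, 1481 and 861 CPM. Sst Hpse had 150 and 87.8 CPM.

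In Sst Pvalb Calb2 and Sst Calb2, part of the room-temperature cells held reads of the genes in their names. In Sst Pvalb Calb2, *Pvalb* had 93.8 CPM with reads in 13 of 26 cells, the highest of any t-type outside the Pvalb family. At physiological temperature all 10 cells of this t-type held a *Pvalb* read (9.15 to 181 CPM), with a lower pooled level of 63.3 CPM. Its 69.8 CPM of *Calb2* at room temperature came from 4 cells and were 3.41 CPM without 1 of them. In Sst Calb2, 33 of 61 cells held *Calb2*, from 0 through 6.99 to 624 CPM and with 90.1 CPM pooled, 150 CPM in the earlier and 42.8 CPM in the later period. Sst Chodl, the long-range projecting type, had 84.9 CPM of *Calb2* (24.2 without the top cell). *Ncald* ranged from 1645 CPM in Sst Myh8_3, where all 9 cells held a read, to 73.5 CPM in Sst Calb2, where 36 of 61 did. In Sst Chodl it was at 382 CPM in the earlier and 470 CPM in the later period. *Necab3* was at 246 CPM in Sst Myh8_1 and 216 CPM in Sst Th_3 against 5.90 CPM in Sst Crhr2_1, and *Necab2* peaked in Sst Th_1 at 57.8 CPM (31.8 without the top cell) in 6 of 7 cells. In Sst 7 of 7 genes were past 8-fold over the 15 t-types, where 77.5% of all genes were.

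**Figure D4:**
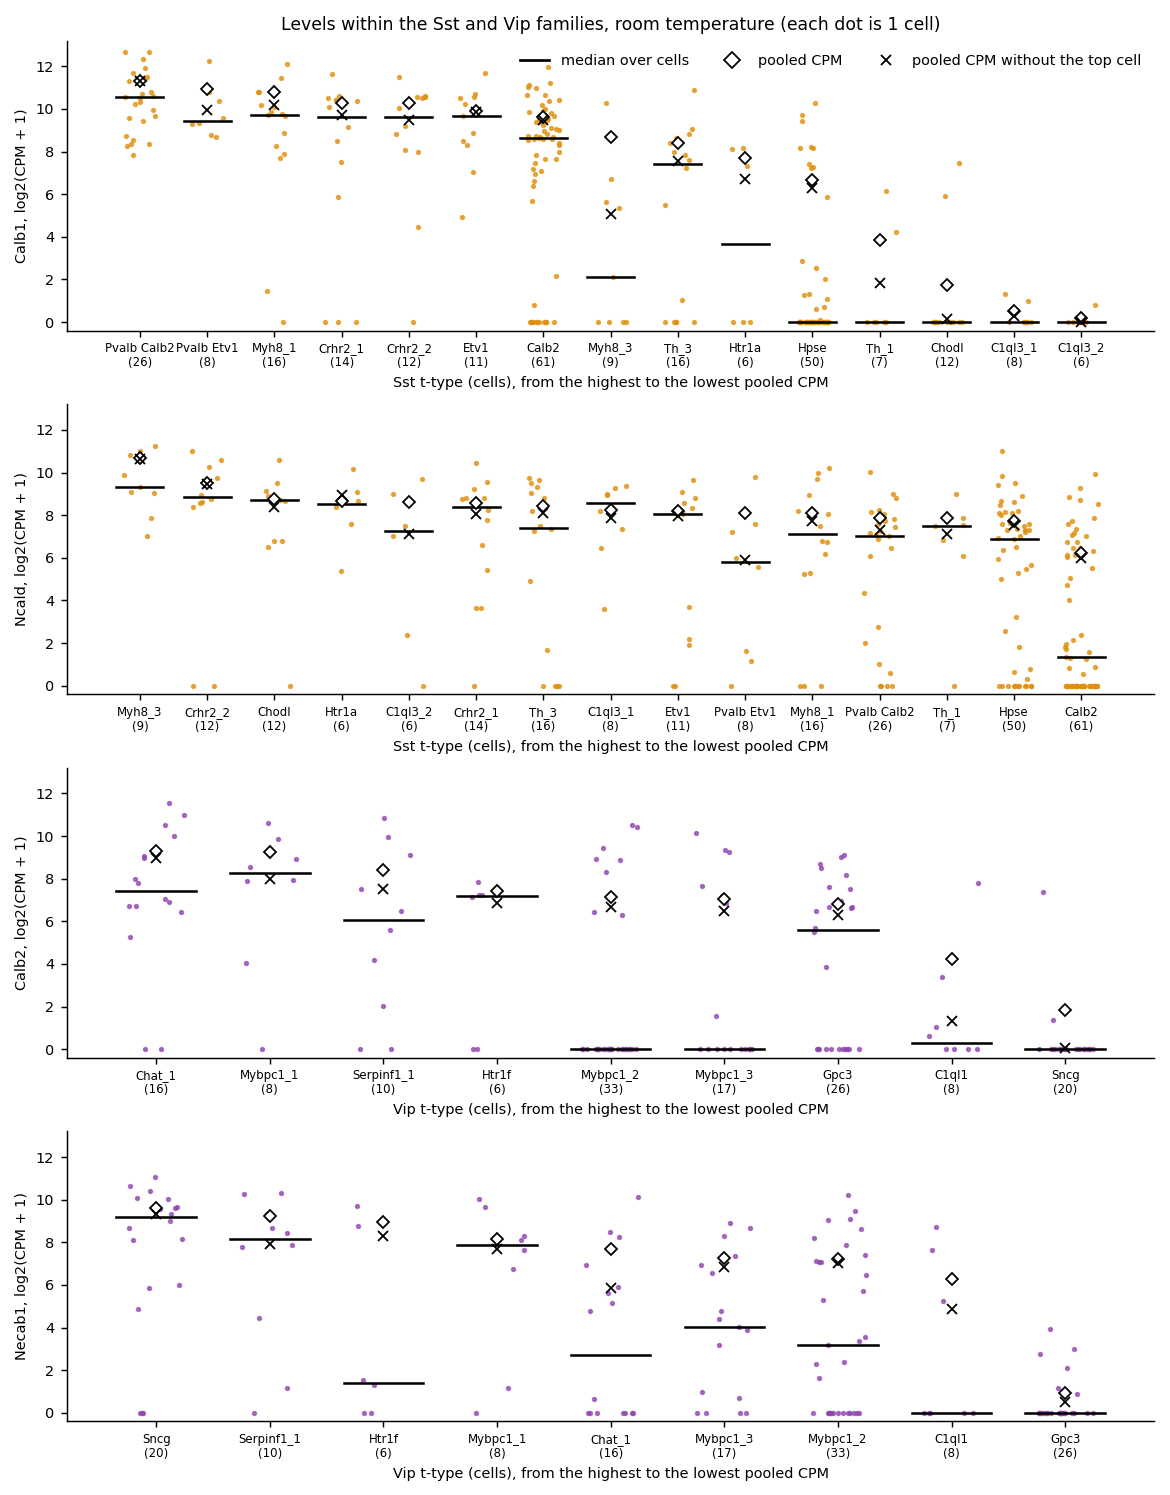
Levels as log2(CPM + 1) of *Calb1* and *Ncald* in the Sst t-types and of *Calb2* and *Necab1* in the Vip t-types at room temperature, from the highest to the lowest t-type, where each dot is a cell, the bar the median over cells, the diamond the pooled CPM and the cross the pooled CPM without the top cell. *Calb1* runs from 2523 CPM in Sst Pvalb Calb2 to 0.145 CPM in Sst C1ql3_2, and cells at 0 sit beside cells above 1000 CPM in Sst Calb2.

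In the Vip family *Calb2* and *Necab1* were highest in different t-types, and Vip Sncg lay at opposite ends of their orders. *Calb2* was highest in Vip Chat_1 at 633 CPM with reads in 14 of 16 cells (0 through 176 to 2992 CPM), followed by Vip Mybpc1_1 at 611 (254 without the top cell), Vip Serpinf1_1 at 336 (183), Vip Htr1f at 170, Vip Mybpc1_2 at 138, Vip Mybpc1_3 at 133 (87.9) and Vip Gpc3 at 111 CPM. Vip C1ql1 had 17.5 CPM (1.52), and Vip Sncg, cells near the Sncg family, had 2.61 CPM. *Necab1* was highest in that last type at 770 CPM in 17 of 20 cells and lowest in Vip Gpc3 at 0.934 CPM. Vip Serpinf1_1 had both, with 593 CPM of *Necab1* (242 without the top cell). In Vip, 6 of 7 genes were past 8-fold, beside 65.3% of all genes, the exception being *Ncald* (5.52-fold, 229 CPM in Vip Serpinf1_1 to 1267 CPM in Vip Htr1f). Without the top cell of each t-type 5 of 6 were, since *Calb1*, at 18.7 CPM in Vip Htr1f, then reached at most 5.01 CPM in any Vip t-type.

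Over the 5 Lamp5 t-types 2 of 5 genes were past 8-fold, beside 54.6% of all genes, and without the top cell of each t-type all 5 were. *Necab1* ran from 359 CPM in Lamp5 Slc35d3 (231 without the top cell) to 1013 CPM in Lamp5 Egln3_2 (490), and *Necab2* from 28.6 CPM in Lamp5 Pdlim5_2 to 64.1 CPM in Lamp5 Egln3_1. *Ncald* was past it, with 68.5 CPM in Lamp5 Egln3_1 against 972 CPM in Lamp5 Pdlim5_2 (630) and 950 CPM in Lamp5 Slc35d3. The other gene past 8-fold was *Calb1*, with 111 CPM in Lamp5 Egln3_1 (49.1) and no read in Lamp5 Pax6.

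Among excitatory t-types *Calb1* was highest in L2/3 IT_3. It had 545 CPM there with reads in 79 of 86 cells, a median of 397 and a highest cell of 2328 CPM, and its level was 630 CPM in the earlier and 302 CPM in the later period. L4/5 IT_1 and L6 IT_1 followed at 110 and 103 CPM, L5 IT_1 had 5.26 CPM, and L5 IT_3 had no read. *Necab1* was highest among IT t-types in L4/5 IT_2 at 377 CPM (28 of 32 cells), and *Necab3* in L6 IT_2 at 324 CPM (22 of 25 cells), the highest level of *Necab3* in any t-type. In IT 5 of 6 genes were past 8-fold, beside 55.5% of all genes.
The layer 5 ET types parted on *Necab1*: L5 PT_1 had 123 CPM (71 without the top cell) and L5 PT_4 had 0.941 CPM, while *Necab3* was at 57.2 and 152 CPM (97.0) and *Ncald* low in both at 15.4 (9.30) and 7.79 CPM. Both CT types were high in 3 of the genes, with *Ncald* at 1810 CPM in L6 CT Pou3f2, the highest of all t-types, and 1264 CPM in L6 CT Cpa6, *Necab1* at 548 and 271 CPM, and *Necab3* at 322 and 230 CPM. In L6b, *Necab1* was at 176 CPM in L6b Col6a1 and had no read in the 5 cells of L6b Ror1.

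Detection of these genes together in a cell was read after every cell was thinned to 200000 exonic reads, with exact binomial intervals. In Pvalb cells, *Pvalb* and *Ncald* were found together in 222 of 273 (81.3%, 76.2 to 85.8) and *Pvalb* and *Calb1* in 63 (23.1%, 18.2 to 28.5). Counted singly, *Pvalb* was found in 258, *Ncald* in 235 and *Calb1* in 65 of these 273 cells. Whether any pair was found together more often than its single counts would give was not tested. In Sst cells, *Calb1* and *Calb2* were found together in 30 of 237 (12.7%, 8.71 to 17.6), and 21 of these 30 were among the 50 cells of Sst Calb2. *Pvalb* and *Calb1* were found together in 38 Sst cells (16.03%), 13 of them among the 23 cells of Sst Pvalb Calb2. Singly, *Calb1* was found in 157, *Calb2* in 40 and *Pvalb* in 48 of the 237 Sst cells. In Vip cells *Calb2* and *Necab1* were found together in 35 of 149 (23.5%, 16.9 to 31.1), *Calb2* alone of them in 31 and *Necab1* alone in 48. *Necab3* and *Ncald* shared 58 of 82 CT cells (70.7%, 59.6 to 80.3), where *Necab3* was found in 59 and *Ncald* in 77. The median cell held 2 of the 7 genes in the Pvalb, Sst, ET and L6b families, 3 in Vip, Lamp5, Sncg, IT and CT, and 1 in NP, and none of the cells held all 7.
Reads also turned up in part of the cells of families with a low pooled level. Before thinning, 21 of 152 Vip cells held 1118 *Pvalb* reads and 33 of 253 IT cells 1901, so these were not only single reads. In 13 of those Vip and 15 of those IT cells the level was 10 CPM or more. After thinning, *Pvalb* was found in 94.5% of Pvalb and 20.3% of Sst cells, and in 10.7% of Vip, 10.4% of IT, 10% of Lamp5 and 8.54% of CT cells, families with less than 6 CPM of it. *Calb2* was found in 44.3% of Vip and 16.9% of Sst cells, against 3.33% of Lamp5, 2.08% of IT and 1.47% of Pvalb cells and none of 44 ET and 82 CT cells, which by a floor of 3 cells allows a share with a read of up to 6.82% and 3.66% at this depth (exact upper limits 8.04% and 4.40%). Before thinning the shares for *Calb2* were 46.7%, 19.9%, 11.96%, 3.56%, 2.80%, 4.17% and 2.41% in the same order. Median depths were 1030398.5 reads in Vip, 1232261 in ET and 1134052 in CT.

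The genes whose levels over the 53 t-types were most like each member's, by Pearson's r of log2(CPM + 1) among 14500 genes, are given as a description, since t-types share tissue, protocol and depth. For *Pvalb* these were *Slc25a3*, the mitochondrial phosphate carrier (r = 0.85), *Adamtsl5* (0.80) and *Syt2*, a synaptotagmin of fast release (0.80). For *Calb2* they were *Wnt7a* (0.80), *Grpr*, the gastrin-releasing peptide receptor (0.75), and *Cp*, ceruloplasmin (0.73). For *Necab1* they were *Nfix* (0.71), B230303A05Rik (0.70) and *Olfm1* (0.68), and for *Ncald* *Rab2a* (0.70), *Ankrd46* (0.68) and *Ubqln1* (0.66). The remaining genes had looser partners: *Lama4* (0.63) and *Stxbp6* (0.61) for *Calb1*, *Nr2f2* (0.63), *Sall1* (0.60) and *Prox1* (0.59) for *Necab2*, all of which code for transcription factors, and *Foxp1* (0.61), Gm42742 (0.60) and *Gfra4* (0.56) for *Necab3*. None of the 21 pairs among the 7 genes came near these values, from -0.40 for *Pvalb* and *Necab2* to 0.32 for *Necab1* with *Necab2* and with *Necab3*.

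The cells recorded at physiological temperature gave a second measurement of the Sst types. In 9 Sst t-types, 199 room-temperature and 98 physiological cells could be set side by side, over the 30749 genes in both tables. *Ncald* was higher at physiological temperature in 8 of the 9, past 2-fold in 5, with log2 differences from -0.19 in Sst Pvalb Calb2 to 1.22 in Sst Myh8_1. Its mean over t-types was 334 CPM at room and 598 CPM at physiological temperature, a difference of 0.84. Without the top physiological cell of each t-type, 8 were still higher and 2 past 2-fold, and without the top cell of each t-type in both sets 9 were higher and 4 past 2-fold. In the excitatory L5 IT_1, with 61 and 29 cells, *Ncald* was at 510 and 1024 CPM.

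**Figure D5:**
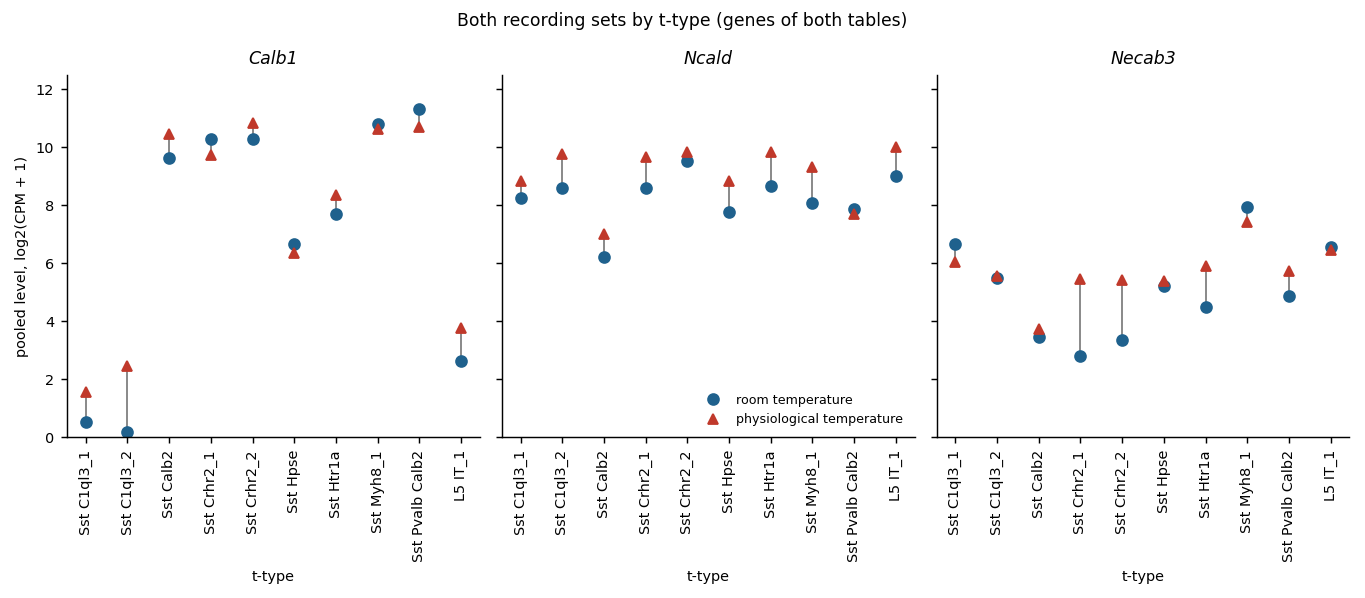
Pooled levels of *Calb1*, *Ncald* and *Necab3* as log2(CPM + 1) in the 9 Sst t-types and L5 IT_1, with a circle for room and a triangle for physiological temperature. For *Ncald* the triangle lies above the circle in 8 of the 9 Sst t-types and in L5 IT_1, and for *Calb1* it lies above in 5 and below in 4 of the Sst t-types.

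*Calb1* had the same t-types at its low end in both sets, namely Sst Htr1a, Sst Hpse and the Sst C1ql3 types. Its mean over t-types was 874 and 858 CPM (-0.03), with 5 t-types higher and 4 lower. Sst Pvalb Calb2 went from 2523 to 1664 CPM and Sst Calb2 from 786 to 1416 CPM, while Sst Hpse had 101 and 80.01 CPM. *Pvalb* had means of 13.8 and 14.2 CPM, *Necab3* 55.8 and 58.7 CPM, *Calb2* 19.2 and 23.2 CPM and *Necab1* 12.49 and 5.61 CPM. The 69.7 CPM of *Calb2* in physiological Sst Crhr2_2 came from 1 cell. Of the 7 genes 0 were past 2-fold higher and 1 lower (*Necab1*) in the mean of the Sst types, beside 5.65% and 9.15% of all genes. The *Necab1* mean rests on Sst Pvalb Calb2, with 107 CPM at room and 49.6 CPM at physiological temperature (72.4 and 22.4 without the top cells), against 3.14 CPM or less in each of the other Sst t-types. In L5 IT_1, 2 were higher (*Calb1*, at 5.27 and 12.6 CPM, and *Ncald*) and 0 lower, beside 7.05% and 8.29%. Both fell short of 2-fold without the top physiological cell, with log2 differences of 0.59 and 0.90. Temperature, recording days, synaptic blockers, mouse line and layer all differ between these sets and cannot be told apart.

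For the physiological set the intronic reads were tabulated too, and the genes differed in how much of their RNA they made up. In Sst cells 55.2% of *Necab1* reads (1428 intronic beside 1159 exonic) and 21.7% of *Ncald* reads were intronic, against 2.37% of *Calb1*, 3.98% of *Necab3* and 7.37% of *Pvalb* reads, beside 25.7% over all genes. In IT cells the shares were 52.6% for *Necab1*, 21% for *Ncald* and 6.04% for *Necab3*, beside 37.4%. *Calb1* had 20.3% in IT cells (246 intronic beside 968 exonic reads), near *Ncald*, so its low share in Sst cells was not found there. For *Necab2* the shares were 25.2% in Sst and 0.862% in IT cells. *Ncald* and *Necab1* also span the longest stretches of the genome among the 7 genes, and the part of gene length in these shares was not tested.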

How the data were processed

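Single neurons were aspirated after recording and their cDNA was amplified, tagmented and sequenced single-end. The authors aligned the reads with STAR 2.5.4b to mm10 (versions from the submitters' processing notes, which also name bcl2fastq 2.20) and counted them through zUMIs, and the deposited values are raw counts per gene and cell, exonic and intronic in separate tables. Exonic counts were used, and intronic counts of the physiological set alone. The room-temperature intronic table was not used here. At room temperature 85 spike-in rows (4.69% of counts) were left out, as were 9 columns that match no labelled sample.

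Counts were summed over cells of a group and divided by the group's total (CPM). Exact Poisson and binomial intervals were computed in Python 3.11.15 with numpy 2.4.6, scipy 1.17.1 and pandas 2.3.3, and figures drawn with matplotlib 3.10.9. For detection, each cell was thinned to 200000 counts, which left out 71 of the 1228 typed cells. A gene counted as beyond 2-fold on the scale of CPM + 1 where the higher group had 10 CPM or more, and within a family the range over t-types was read against 8-fold. Groups and t-types are the authors' labels. Each sample is 1 aspirated cell, so no doublets were searched. No test was made, because no label ties a cell to an animal and each group is then 1 sample. The text names the 7 genes in every group compared, the 3 genes most like each of them over t-types (1 of these is not reported here), and those of the EF-hand lists farthest from 0. The genes and lists were chosen with earlier results of these data known. The scripts were checked on simulated data. Alternatives weighted cells equally, thinned them, took 1 recording period, another pseudocount (0.1 CPM), median-of-ratios scaling or no minimum level, or left out the cell with the most reads. Leaving out that cell in every t-type was added after seeing the data.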

Additional observations from a re-analysis of the deposited data

Results flagged for a closer look

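In 37 groups of 5 to 10 cells, each the highest or lowest t-type of its family for a gene, Dixon's ratio (the gap of an extreme cell to the next over the range of the group, on the log2(CPM + 1) scale) passed its critical value in 13. Chance flags about 1 in 20 groups of normal values, a rate that does not hold here, since the t-types were picked as extremes and many cells are at 0. The ratios are a description of cells and no test. In 11 of the 13 the outlying cell was the high one.
For *Necab2* the ratio was 1 in Vip Htr1f, where 1 of 6 cells had 328 CPM and the others none, 1 in L5 IT_2 (58.6 CPM in 1 of 7 cells), 1 in L5 PT_4 (13.7 CPM) and 0.782 in L6b Ror1, with 33.9 CPM against 1.17 CPM in the next cell. The levels of *Necab2* in Vip Htr1f and L5 IT_2, the highest of their families, therefore came from 1 cell each.
For *Calb1* the ratio was 1 in Sst C1ql3_2, at 0.757 CPM in the only cell with a read, and 0.907 in Vip Htr1f, with 410 CPM against 0.746 CPM. For *Necab1* it was 1 in L5 PT_4, where 1 of 9 cells had 190 CPM, and for *Calb2* 1 in L6b Col6a1, with 41.99 CPM in 1 of 10 cells. For *Pvalb* it was 1 in L6b Ror1 (36.5 CPM in 1 of 5 cells) and 1 in L6b Col6a1 (1.06 CPM). For *Necab3* it was 1 in Vip C1ql1 (2.86 CPM), and 0.832 in Pvalb Gabrg1, where 1 of 7 cells held no read and the next had 147 CPM. For *Ncald* it was 0.726 in L6b Col6a1, where 1 of 10 cells had 2.71 CPM and the next 424 CPM.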

How the results depend on the processing

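No paired analysis was run, because the result comes from no test and no label ties cells to animals. Values within recording days were not computed. The difference between the highest family and the second, on the log2(CPM + 1) scale, kept its direction in every alternative run except for *Calb2* in the earlier recording period. For *Pvalb* (4.41) it was 4.75 with equal weight of cells, 4.55 thinned, 4.76 in the earlier years alone, 4.25 in the later period, 4.32 with median-of-ratios scaling and 4.39 without the top cell. For *Calb1* (1.87) the values were 1.54, 1.66, 3.07 in the later period, 1.69 with that scaling and 1.78 without the top cell. For *Calb2* (2.68) they were 2.62 in both of the first, 3.25 in the later period, 2.65 and 2.54, and the difference reversed to -1.68 in the earlier period, when only 6 Vip cells were recorded. For *Necab1* (0.55) they were 1.03, 1.01, 0.71 scaled and 0.37 without the top cell. For *Necab2* (1.05) thinning gave 1.25, the later period 0.23, scaling 1.21 and leaving out the top cell 0.68. For *Necab3* (1.08) they were 1.16 and 1.16, 0.87 in the later period, 1.22 and 1.03, and for *Ncald* (0.79) 1.06 and 1.06, 0.72, 0.87 and 0.68. Where these moved, the cause was not tested. Without a minimum level the genes beyond 2-fold between inhibitory and excitatory cells numbered 3324 in place of 1844. Of the 49 recomputed values of these results 13 stayed within the counting interval or, for the number of genes, within 1.5 times, and of 42 for the differences of the 7 genes between inhibitory and excitatory cells 16 stayed within that interval and none changed sign. Chosen after seeing the data, leaving out the top cell of each t-type took the genes past 8-fold over Lamp5 t-types from 2 to 5, and the Sst t-types with *Ncald* past 2-fold higher at physiological temperature from 5 to 4, or to 2 where this was done in the physiological set alone. Adding intronic to exonic counts at room temperature was planned and not run. In the earlier period *Calb1*, *Necab1*, *Necab2*, *Necab3* and *Ncald* gave no value for the families compared, since fewer than 5 cells were recorded in 1 of them. Depth bounds the low levels: in NP, 0 reads allow up to 0.330 CPM by a floor of 3 reads (exact upper limit 0.406 CPM).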

Other observations

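The 92 room-temperature cells without a t-type, which enter no comparison, had a median depth of 236502.5 exonic reads, and 41 of them had fewer than 200000. Summed over these cells, *Ncald* had 100.02 CPM with reads in 26 cells, *Calb1* 59.1 CPM in 12, *Pvalb* 52.5 CPM in 19, *Necab3* 24.5 CPM in 8, *Necab1* 4.52 CPM in 7 and *Calb2* 3.22 CPM in 3. *Necab2* had no read among them, which allows up to 0.0886 CPM by a floor of 3 reads. Of the *Calb1* reads 60.98% came from 1 cell, and without it the level was 23.3 CPM. Without the top cell *Necab3* had 8.74, *Necab1* 2.21, *Calb2* 1.30 and *Pvalb* 35.5 CPM.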
